A study of Homo sapiens with 12 samples.

Results

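The genes described here are 10 regulators of the passage from G1 into S phase, namely the D-type cyclins CCND1, CCND2 and CCND3, their kinases CDK4 and CDK6, the inhibitors CDKN2A and CDKN2B, the retinoblastoma gene RB1 and the E-type cyclins CCNE1 and CCNE2. They are 10 of 36337 gene names on the array, and were found by the gene name given to each probe in the scanner output, which returned 12 probes of 60 bases out of 50599, since CDKN2A and CCNE2 have 2 probes each. The arrays compared 3 human lines derived from lung cancer, namely A549, PC14 and its cisplatin-resistant derivative PC14CDDP. Cells of each line were transfected at 25 nM with premiR-197, a synthetic precursor that supplies the microRNA miR-197, with its control AllStar-NC, with LNA-miR-197, a locked nucleic acid oligonucleotide that blocks miR-197, or with its control LNA-miR-NC. Every sample received an oligonucleotide and the same lipid reagent, and no untransfected culture was among the samples. Each of the 12 combinations gave 1 one-dye array, made from 100 ng of total RNA, so that the 3 lines served as replicates of a transfection and the 4 arrays of a line as repeated measures of that line. Since PC14CDDP derives from PC14, these replicates are not 3 independent lines. No source says whether the arrays came from separate cultures, so the p-values measure the spread between these arrays.

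Progress through G1 is set by D-type cyclins, which bind CDK4 or CDK6 and start the phosphorylation of the RB1 protein. The INK4 inhibitors p16, a product of CDKN2A, and p15, the product of CDKN2B, bind these kinases and keep them from the cyclins. Phosphorylated RB1 releases E2F transcription factors, whose targets include CCNE1 and CCNE2, and cyclin E with CDK2 completes the phosphorylation. Loss of CDKN2A, loss of RB1 and gain of CCND1 are frequent in lung cancer.

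The microRNA supplied or blocked in these cells is shown first, since its seed is what pairs with a messenger RNA. RefSeq places hsa-miR-197-3p on chromosome 1 of GRCh38.p14, at chr1:109598940-109598961 on the plus strand, and its seed, bases 2 to 8 from the 5′ end, is in capitals.

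hsa-miR-197-3p: uUCACCACcuucuccacccagc

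The DNA letters complementary to this seed, GTGGTGA, stood in 0 of the 12 member probes on the sense strand and in 258 of the 50599 probes of the array (0.510%), a search that covers the probes and not the transcripts around them. miR-197 itself was not measured here, since 0 probes carry its name.

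All values below are the log2 of the background-subtracted signal of a probe minus the log2 of the 75th percentile on that array, so that 0 stands for a signal as bright as that percentile. Brightness also depends on the probe, and levels are therefore compared between arrays and never between probes. Of the 12 member probes 9, for 8 genes, passed the scanner's call of well above background on each of the 12 arrays. The CCND2 probe was so on the 4 arrays of PC14CDDP and on none of the other 8. The CDKN2B probe and 1 of the 2 CDKN2A probes were so on 0 arrays. Testing required at least 3 arrays well above background, which 10 member probes had (83.3%, against 66.6% of all probes). The 2 frequently repeated probes show the precision of a single array, with a median SD of 0.05 between the 10 spots of CCND1 and of 0.05 between the 8 to 10 usable spots of RB1.

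Of the D-type cyclins, CCND2 and CCND1 were higher in PC14CDDP than in PC14, and CCND3 was highest in A549. CCND2, probed at chr12:4414040-4414099 of hg19, had the largest difference among the members tested, bright in PC14CDDP and dark in its parental line. In PC14CDDP its values were -0.24 with AllStar-NC, -1.38 with premiR-197, -0.80 with LNA-miR-NC and -1.51 with LNA-miR-197 (mean -0.98 ± 0.59, SD, n = 4). In PC14 all 4 values lay between -8.38 and -7.92, and in A549 all 4 lay between -8.06 and -7.48, none of them well above background, so the levels of PC14CDDP stood apart from both. Against the lowest signal that counted as well above background, CCND2 was at least 38.9-fold higher in PC14CDDP than in PC14. Against A549 it was at least 35.5-fold higher by the same bound. The bound is approximate, since on some arrays a probe brighter than that lowest signal was not called well above background. In bulk RNA a smaller share of expressing cells and less RNA per cell cannot be told apart. Since CCND2 passed the filter only through PC14CDDP, it had to differ between the lines, and the bound is a description with no test.

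CCND1 (chr11:69468233-69468292) ranged from 1.23 to 2.16 over the 12 arrays. The A549 arrays averaged 1.95 ± 0.15 (SD, n = 4), those of PC14 1.51 ± 0.27 and those of PC14CDDP 1.90 ± 0.23. It was 1.31-fold higher in PC14CDDP than in PC14 (log2 difference 0.39, SE 0.10, adjusted p = 0.014) and 1.36-fold higher in A549 than in PC14 (adjusted p = 0.0050). The PC14CDDP arrays overlapped with those of both other lines, while the lowest A549 value, 1.80, lay just above the highest PC14 value, 1.77. The call between PC14CDDP and PC14 was lost without the AllStar-NC arrays (0.40, adjusted p = 0.068) and without the LNA-miR-NC arrays (0.28, adjusted p = 0.069). A549 and PC14CDDP differed in their means by 0.05, which is less than the spread within either line.

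CCND3 (chr6:41903193-41903252) was highest in A549, at 3.40 with AllStar-NC, 4.09 with premiR-197, 3.67 with LNA-miR-NC and 3.97 with LNA-miR-197. The corresponding values were 2.26, 3.0, 2.56 and 2.46 in PC14, and 2.62, 2.54, 2.82 and 2.44 in PC14CDDP. Every A549 array lay above every array of the other lines, and the difference from PC14 was 2.32-fold (log2 1.21, SE 0.16, adjusted p = 0.00022). Between PC14CDDP and PC14 the difference was 0.03 with a 95% interval from -0.34 to 0.41.

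Of the kinases that these cyclins activate, CDK4 was higher in PC14CDDP and CDK6 in A549. CDK4 (chr12:58142263-58142322) stood at 4.95 with AllStar-NC, 5.25 with premiR-197, 5.18 with LNA-miR-NC and 4.78 with LNA-miR-197 in PC14CDDP. In PC14 its values were 3.94, 4.21, 4.13 and 3.96 in the same order, and in A549 they were 4.07, 4.20, 3.90 and 3.89. All 4 PC14CDDP arrays lay above all 8 others, with a 1.97-fold difference from PC14 (log2 0.98, SE 0.09, adjusted p = 7.0e-05) that held under every alternative tried. A549 and PC14 overlapped and differed by -0.05 (95% interval -0.26 to 0.17).

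CDK6 (chr7:92234443-92234502) stood at 3.85 with AllStar-NC, 3.54 with premiR-197, 3.27 with LNA-miR-NC and 3.08 with LNA-miR-197 in A549. In PC14CDDP the values were 2.18, 2.41, 1.95 and 1.88, and in PC14 they were 1.48, 1.39, 1.37 and 1.71. The arrays of the 3 lines did not overlap at any step of the order from A549 over PC14CDDP to PC14. CDK6 was 3.86-fold higher in A549 than in PC14 (log2 1.95, SE 0.16, adjusted p = 1.4e-05) and 1.53-fold higher in PC14CDDP than in PC14 (log2 0.62, SE 0.16, adjusted p = 0.014). The latter call was lost without the premiR-197 arrays (0.48, adjusted p = 0.089) and without the LNA-miR-NC arrays (0.63, adjusted p = 0.062).

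The inhibitors gave the sharpest disagreement between probes. CDKN2A is read from alternative first exons into p16 and into p14ARF, which restrains MDM2, and its 2 probes lie on the minus strand of chromosome 9 of hg19. The upstream one, at chr9:21970901-21970960, falls in the exon that both transcripts share, and its sequence is shown because it was not well above background in any line.

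CDKN2A upstream probe: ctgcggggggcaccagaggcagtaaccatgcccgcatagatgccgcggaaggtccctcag

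The upstream values lay between -8.09 and -5.42 over the 12 arrays, and those of CDKN2B (chr9:22008979-22009038) between -8.34 and -5.99, so that neither probe gave more than a bound in any line. The downstream CDKN2A probe, at chr9:21968039-21968098 toward the 3′ end of the gene, was well above background on all 12 arrays. Its values were 1.56 with AllStar-NC, 1.75 with premiR-197, 1.15 with LNA-miR-NC and 1.33 with LNA-miR-197 in A549. They were -0.23, -0.56, -0.56 and -0.94 in PC14, and -0.74, -0.86, -1.08 and -1.40 in PC14CDDP. A549 lay above every array of the other lines, by 4.06-fold against PC14 (log2 2.02, SE 0.12, adjusted p = 2.0e-06). PC14CDDP was 1.36-fold below PC14 (log2 -0.45, SE 0.12, adjusted p = 0.015), with overlapping arrays, a call lost without the AllStar-NC arrays (-0.42, adjusted p = 0.071). Over the 12 arrays the correlation between the probes was r = 0.01, a description in which the upstream values are background. What the downstream probe hybridised to was not tested, and its value is therefore given as that of the probe and not of p16.

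The genes on either side of CDKN2A and CDKN2B separated the lines further. KLHL9, a substrate adaptor of a CUL3 ubiquitin ligase, was at 2.99 ± 0.19 (SD, n = 4) in A549 and at background throughout PC14 and PC14CDDP, an excess over PC14 of at least 613-fold. IFNE, an epithelial interferon, was at least 15.9-fold higher and DMRTA1, a DM-domain transcription factor gene, at least 8.44-fold higher in A549, again with 0 arrays of PC14 or PC14CDDP above background. MTAP, an enzyme of methionine salvage, was at 0.60 ± 0.28 in A549 and was well above background on 1 of 4 arrays in PC14 and on 0 of 4 in PC14CDDP, with a mean of -6.63 in PC14 that is mostly background. The antisense gene CDKN2B-AS1 was above background on 1 of the 12 arrays and was not tested. In A549, therefore, the detected probes lay on both sides of an undetected stretch that held the upstream CDKN2A, CDKN2B and CDKN2B-AS1 probes, whereas in PC14 and PC14CDDP the downstream CDKN2A probe was the only one of the 8 probes well above background on all 4 arrays. Gene copies were not measured here. These 4 neighbours passed the filter on dim probes only through A549, so that they had to be higher there, and their levels and bounds are a description with no test.

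**Figure D1:**
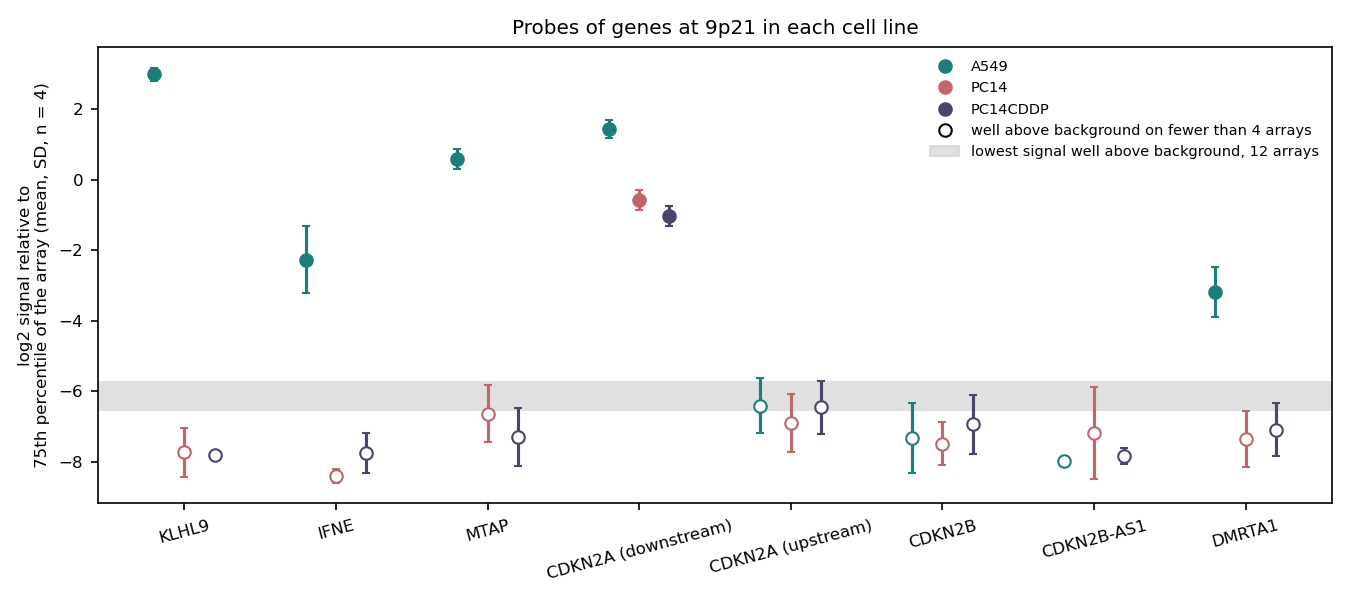
Mean log2 signal of the probes at 9p21, scaled to the 75th percentile of each array, with the SD over 4 arrays as bars, in their order along the chromosome on the x axis, with open symbols where fewer than 4 arrays were well above background. A549 shows bright KLHL9, IFNE, MTAP, downstream CDKN2A and DMRTA1 probes around dark ones, while PC14 and PC14CDDP show only the downstream CDKN2A probe above the grey band.

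RB1 (chr13:49055845-49055904), the substrate of these kinases, was detected in every line. Its values were 2.29 with AllStar-NC, 2.31 with premiR-197, 2.30 with LNA-miR-NC and 2.15 with LNA-miR-197 in A549. In the same order they were 1.79, 1.88, 1.78 and 1.59 in PC14, and 1.49, 1.86, 1.35 and 1.12 in PC14CDDP. A549 did not overlap with the other lines and was 1.42-fold above PC14 (log2 0.50, SE 0.11, adjusted p = 0.0029). PC14CDDP was 1.24-fold below PC14 (log2 -0.31, SE 0.11, adjusted p = 0.041), with overlapping arrays. This call was lost without the AllStar-NC arrays (-0.31, adjusted p = 0.15), without the LNA-miR-197 arrays (-0.25, adjusted p = 0.13) and without the LNA-miR-NC arrays (-0.26, adjusted p = 0.17).

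Of the E-type cyclins, CCNE2 passed the test between lines and CCNE1 did not. CCNE1 (chr19:30315106-30315165) averaged 3.63 ± 0.15 (SD, n = 4) over the A549 arrays, 3.44 ± 0.14 over those of PC14 and 3.07 ± 0.49 over those of PC14CDDP. The last spread came from 3.75 on the AllStar-NC array against 2.99, 2.99 and 2.57 on the premiR-197, LNA-miR-NC and LNA-miR-197 arrays. PC14CDDP minus PC14 was -0.36 (95% interval -0.74 to 0.02, adjusted p = 0.11), and became -0.53 (adjusted p = 0.041) when the AllStar-NC arrays were left out.

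CCNE2 on chromosome 8 was lowest in A549 by both of its probes. The probe P3217819 (chr8:95894361-95894420) averaged -3.50 ± 0.23 (SD, n = 4) in A549, -1.44 ± 0.64 in PC14 and -0.52 ± 0.76 in PC14CDDP. The probe P3247022 (chr8:95892618-95892677) averaged -1.21 ± 0.13, 0.65 ± 0.20 and 1.19 ± 0.20. A549 was below PC14 by 4.18-fold on the first (adjusted p = 0.00011) and by 3.63-fold on the second (adjusted p = 1.0e-06), with no overlap. PC14CDDP was above PC14 by 1.89-fold (adjusted p = 0.014) and 1.46-fold (adjusted p = 0.0021), and only the second probe kept the lines apart on every array. The call on the first probe was lost without the premiR-197 arrays (0.90, adjusted p = 0.065). The probes were correlated over the 12 arrays (r = 0.97), a description in which the line sets most of the range.

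Counted over the probes tested, 6 member probes were higher and 2 lower in PC14CDDP than in PC14, where 25.5% of all 33715 probes were higher and 23.3% lower. Without CCND2, whose call the filter fixed, 5 of 9 were higher and 2 lower, with a median difference of 0.39 against 0.04 over all probes. In A549 against PC14, 5 member probes were higher and 2 lower, beside 34.3% and 33.1% of all probes, with a median of 0.45 without CCND2 against 0.05. A large share of all probes separated the lines, and whether the members did so more often than all probes was not tested. A549 was hybridised on 1 slide and both other lines on a second one, so that in A549 against PC14 the line and the slide cannot be told apart. On the shared slide the PC14 arrays lay in row 1 and the PC14CDDP arrays in row 2. In PC14CDDP against PC14 the line and the slide row therefore cannot be told apart.

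The partners of these genes were taken from a list of 24 regulators of the G1/S transition, all of which were tested by their brightest probe. In PC14CDDP against PC14, 16 rose and 4 fell, beside 25.0% and 23.2% of all genes, with a list median of 0.51 against 0.04. The 4 largest rises were CDKN1A, the p53-induced inhibitor p21, at 5.05-fold (adjusted p = 0.00034), CDC25A, a phosphatase that activates CDK2, at 2.77-fold (adjusted p = 0.00011), CCNH, the cyclin of the CDK-activating kinase, at 2.14-fold (adjusted p = 4.9e-05), and the RB1 relative RBL1 at 2.04-fold (adjusted p = 0.00037). The 4 that fell were MNAT1, which assembles the CDK-activating kinase, by 1.58-fold, the INK4 inhibitors CDKN2D and CDKN2C by 1.42-fold and 1.36-fold, and RBL2, another RB1 relative, by 1.37-fold (adjusted p from 0.00018 to 0.012). Genes that promote and genes that restrain the transition were thus among both the rises and the falls.

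Among 14 E2F targets, most of them genes of DNA synthesis, 11 rose and 1 fell in PC14CDDP, beside the same 25.0% and 23.2% of all genes, with a median of 0.47 against 0.04 over all genes. The ribonucleotide reductase subunit RRM2 rose 2.31-fold (adjusted p = 0.00022), CDC45, a subunit of the active replicative helicase, rose 1.92-fold (adjusted p = 0.00021), the helicase loader CDC6 rose 1.64-fold (adjusted p = 0.0026), and the helicase subunit MCM6 rose 1.80-fold (adjusted p = 6.4e-05). MCM5, a subunit of the same helicase, fell 1.47-fold (adjusted p = 0.0082). The partner and E2F target lists were chosen with earlier results of these data known. Their counts here and in A549 against PC14 are therefore a description and no test of the lists.

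In A549 against PC14 the partner list leaned the other way, with 5 rises and 14 falls of 24, beside 35.7% of genes higher and 32.3% lower, and a median of -0.51 against 0.08. CDKN1A rose 7.96-fold (adjusted p = 3.9e-05) and E2F5, a repressive E2F, rose 2.06-fold (adjusted p = 0.00023), while CDK7, the kinase partner of CCNH, and WEE1, which inhibits CDK1, rose 1.58-fold each. The largest falls were CDKN1C, the inhibitor p57, by 4.10-fold (adjusted p = 0.00021), TFDP2, a dimer partner of the E2Fs, by 2.47-fold (adjusted p = 9.4e-06), CCNA2, the S-phase cyclin A, by 2.38-fold (adjusted p = 5.0e-05), and CDKN2D by 2.14-fold (adjusted p = 0.00010). Of the 14 E2F targets 4 rose and 5 fell, beside the same 35.7% and 32.3% of all genes, the helicase subunits MCM2, MCM3, MCM4 and MCM5 falling by 1.85-fold to 2.09-fold and the sliding clamp gene PCNA rising 1.79-fold. Between these lines the E2F target list had a median of 0.04 against 0.08 over all genes.

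The next comparisons ask what supplying or blocking miR-197 did to the members. After premiR-197, 0 of the 10 tested member probes passed the test against AllStar-NC in limma, where 0.0297% of all probes were higher and 0.0564% lower. At an unadjusted p under 0.05, which 15.8% of all probes reached, there was 1 member of 10, CCND3, which differed by 0.68 in A549, by 0.74 in PC14 and by -0.08 in PC14CDDP (mean 0.45, 95% interval 0.02 to 0.88, adjusted p = 0.30). CCNE1 was lower in all 3 lines, by -0.21, -0.33 and -0.76 (mean -0.44, interval -0.88 to 0.01, adjusted p = 0.32). CDK4 was higher in all 3, by 0.13, 0.27 and 0.30 (mean 0.23, interval -0.01 to 0.48, adjusted p = 0.34). These differences did not hold up against the spread over lines and all probes tested. For CCNE1 the other control, LNA-miR-NC, was also below AllStar-NC, by -0.36 in A549, -0.12 in PC14 and -0.76 in PC14CDDP (mean -0.41). How much of the CCNE1 difference after premiR-197 lay in the AllStar-NC arrays was not tested.

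In the other members the intervals bound what may have gone undetected. The difference after premiR-197 was -0.16 for CCND1 (95% interval -0.44 to 0.11), 0.16 for RB1 (-0.12 to 0.44), -0.06 for CDK6 (-0.49 to 0.38) and -0.08 for the downstream CDKN2A probe (-0.41 to 0.24). For the CCNE2 probes it was -0.23 (-0.88 to 0.42) on P3217819 and -0.15 (-0.41 to 0.11) on P3247022. The median over the 9 member probes other than CCND2 was -0.08, against 0.02 over all probes. By the methods' t-test the count of members called was also 0. Of the 24 partners and 14 E2F targets described above 0 were called, and 5 and 2 had an unadjusted p under 0.05, beside 16% of genes by 1 probe a gene. CCND2 was measurable in PC14CDDP alone, where it was 2.22-fold lower with premiR-197 than with AllStar-NC, on 1 array each and with no replicate check. The control LNA-miR-NC was itself 1.48-fold below AllStar-NC for CCND2 in that line, also on 1 array each. A rule without a test, at least 1.2-fold the same way in all 3 lines, was met by 0 member probes in either direction, beside 3.86% of all probes upward and 5.01% downward.

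After LNA-miR-197, 1 member probe rose and 0 fell against LNA-miR-NC in limma, where 4.03% of all probes were higher and 3.96% lower. The riser was the CCNE2 probe P3217819, higher by 0.32 in A549, by 1.38 in PC14 and by 1.72 in PC14CDDP. On its 4 arrays it stood at -3.21 with AllStar-NC, -3.56 with premiR-197, -3.77 with LNA-miR-NC and -3.45 with LNA-miR-197 in A549. In PC14 the values were -1.58, -1.80, -1.87 and -0.50, and in PC14CDDP -0.71, -0.82, -1.13 and 0.59, so that LNA-miR-197 gave the highest value in both of these lines and the second highest in A549. The mean rise was 2.21-fold (log2 1.14, SE 0.28, adjusted p = 0.048).

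The second CCNE2 probe, P3247022, moved the same way by less, with differences of 0.16, 0.38 and 0.47 (mean 0.34, SE 0.11, unadjusted p = 0.018 and adjusted p = 0.10 in limma). The probes lie within the same gene, and whether they read different transcript ends was not tested. The call on P3217819 was lost whenever a line was left out, with a rise of 1.55 without A549 (adjusted p = 0.070), 1.02 without PC14 (adjusted p = 0.30) and 0.85 without PC14CDDP (adjusted p = 0.34), and without the line as a block (adjusted p = 1.00). Between the controls, P3217819 was lower with LNA-miR-NC than with AllStar-NC in all 3 lines, by -0.56, -0.29 and -0.41. Against AllStar-NC in place of LNA-miR-NC the rise on P3217819 was 0.72 (SE 0.28, adjusted p = 0.12). On P3247022 it was 0.15 (SE 0.11, adjusted p = 0.39 in limma). In A549 both probes were lower with LNA-miR-197 than with AllStar-NC, at -3.45 against -3.21 on P3217819 and -1.19 against -1.04 on P3247022. In the other lines both probes were higher with LNA-miR-197 than with AllStar-NC.

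**Figure D2:**
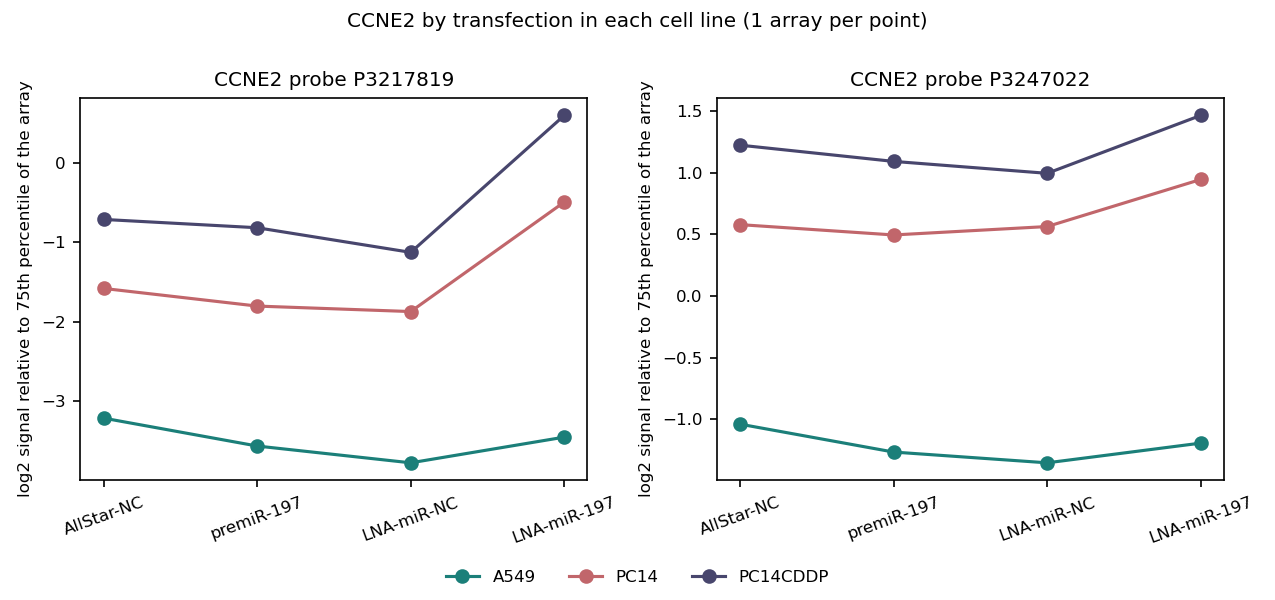
Log2 signal of the 2 CCNE2 probes, scaled to the 75th percentile of each array (y axis), by transfection (x axis), with 1 array per point and a line for each cell line. Both probes are highest with LNA-miR-197 in PC14 and PC14CDDP, and the step is larger on P3217819.

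The other members did not pass the test after LNA-miR-197, and the median of the 9 probes other than CCND2 was -0.10 against -0.01 over all probes. RB1 was lower in all 3 lines, by -0.14, -0.19 and -0.23 (mean -0.19, 95% interval -0.47 to 0.09, adjusted p = 0.36), and CDK4 by -0.01, -0.17 and -0.40 (mean -0.19, interval -0.44 to 0.05, adjusted p = 0.29). CDK6 differed by 0.03 (interval -0.41 to 0.46), CCND3 by -0.06 (-0.49 to 0.37) and CCNE1 by -0.10 (-0.54 to 0.34). CCND2, again measurable in PC14CDDP only, was 1.63-fold lower there on 1 array each. CCND1 differed by -0.13 (-0.40 to 0.15) and the downstream CDKN2A probe by -0.17 (-0.49 to 0.15) from LNA-miR-NC. With AllStar-NC as the control both fell, CCND1 by 0.44 (SE 0.12, adjusted p = 0.045) and the CDKN2A probe by 0.53 (SE 0.14, adjusted p = 0.041), beside 7.80% of all probes called lower in that comparison. Most of each fall already lay between the controls, where LNA-miR-NC minus AllStar-NC was -0.31 for CCND1 and -0.36 for the CDKN2A probe.

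The 1.2-fold rule was met upward by 1 member probe, CCNE2 P3217819, beside 7.24% of all probes, and downward by CCND2, beside 8.09%. The CCND2 count carries no measurement in A549 and PC14, where the probe was at background. Of the 24 partners, 2 rose after LNA-miR-197 and 0 fell, beside 3.85% and 3.88% of genes. They were E2F6, a repressor of the E2F family, at 1.47-fold (adjusted p = 0.039), and TFDP2 at 1.39-fold (adjusted p = 0.049). An unadjusted p under 0.05 was reached by 6 partners, beside 26.9% of genes, a share that 6 of 24 did not exceed. Of the 14 E2F targets 0 passed the test in limma, and 2 passed the unadjusted p, with a list median of 0.00 against -0.01 over all genes.

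Whether supplying and blocking the microRNA had different effects was tested directly, as the premiR-197 effect minus the LNA-miR-197 effect. In limma 0 member probes passed, beside 0.0504% of all probes, and 3 of 10 had an unadjusted p under 0.05, beside 18.4% of all probes. These were the CCNE2 probes, at -1.37 (95% interval -2.29 to -0.45, adjusted p = 0.14) and -0.48 (-0.85 to -0.11, adjusted p = 0.18), and CDK4 at 0.42 (0.08 to 0.77, adjusted p = 0.20). CCND1 differed by -0.04 (-0.43 to 0.35). Of the partners and E2F targets 0 were called, with 8 and 2 at an unadjusted p under 0.05, beside 17.9% of genes.

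The 2 controls were also set against each other. With LNA-miR-NC against AllStar-NC, 0 member probes passed the test in limma, beside 0.317% of all probes higher and 0.128% lower, and 2 of 10 had an unadjusted p under 0.05, beside 13.3% of all probes. CCND1 was lower in all 3 lines, by -0.22, -0.54 and -0.18 (mean -0.31, SE 0.12, adjusted p = 0.31). The downstream CDKN2A probe was lower by -0.41, -0.33 and -0.33 (mean -0.36, SE 0.14, adjusted p = 0.32). Across the tested member probes 8 of 10 were below 0, CCND2 among them, with a median of -0.31 without CCND2 against -0.04 over all probes. The share of all probes below 0 was not counted, so the 8 of 10 is a description with no background beside it. The 1.2-fold rule was met downward by 2 probes, downstream CDKN2A and CCNE2 P3217819, beside 4.37% of all probes, and upward by 0 beside 4.53%. Of the partners and E2F targets 0 were called, with 2 and 1 at an unadjusted p under 0.05, beside 13.6% of genes. These comparisons share control arrays with those above. Each transfection held the same column of the slide in every line, and column and transfection cannot be told apart.

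The genes whose pattern over the 12 arrays was most like that of a member were searched among 18554 genes well above background on every array, as a description in which the line sets most of the pattern. CDK4 was most like NAA10 (r = 0.99), TMEM14A (r = 0.99) and MUC4 (r = 0.98). RB1 was most like ZFYVE16 (r = 0.99), DOCK11 (r = 0.98) and MYO9A (r = 0.98). The downstream CDKN2A probe was most like MTRNR2L7 and MTRNR2L3 (r = 0.998 each), members of a family resembling mitochondrial RNA. CCNE1 was most like PIF1 (r = 0.93) and CCND1 most like F8 (r = 0.94).

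As a check of the lines, the epithelial keratins KRT8 and KRT18 exceeded background on every array, but EPCAM and CDH1 were so on all 4 arrays in A549, on 3 and 2 in PC14 and on 0 in PC14CDDP. The summed level of these 4 markers, as a multiple of the 75th percentile, was 285 to 391 in A549, 153 to 224 in PC14 and 158 to 228 in PC14CDDP, and its part in the line differences was not tested. Most of that sum was the KRT18 probe, with mean log2 values of 8.28, 7.41 and 7.60 in the same order. The sum therefore hardly registers EPCAM or CDH1. Of 4 lung lineage markers NKX2-1 and SFTPB were at background on all A549 arrays, and SFTPB alone was so in the other lines. Of 4 fibroblast markers 1 and of 4 leukocyte markers 3 were above background on all 4 arrays in each line. Per array, 55.8% to 63.1% of probes passed the scanner's background call, the scaling value ranged from 613 to 719 signal units, and 0 spots were saturated.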

How the data were processed

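RNA of 12 transfected samples was labelled with Cy3 and hybridised to Agilent arrays. The authors deposited scanner output of Agilent Feature Extraction 10.7.3.1, whose processed intensity per spot has local background removed and a spatial trend corrected but no scaling across arrays, and a table of intensity values equal to it on every spot. Build hg19 stands in the headers. Their main methods state no normalization for these arrays. Control and outlier spots were left out, spots of a probe were averaged, and each log2 intensity was set against that of the array's 75th percentile. limma 3.58.1 (R 4.3.3) fitted line and transfection over all 12 arrays (33715 probes well above background on at least 3), with eBayes and Benjamini-Hochberg adjustment over these, with calls at an adjusted p under 0.05.

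The line is the block. Deviations of arrays of the same line from the transfection means correlated at 0.845 to 0.947. These deviations keep the differences between the lines, so the correlation is a description and no test of the choice of block. On simulated arrays for LNA-miR-197 against LNA-miR-NC with 33715 probes, 83 of 100 changes of log2 2 and 48 of 100 of log2 1 were recovered, with 7 false calls. RefSeq accessions (GRCh38.p14) named 28174 of the 50599 probes (55.7%), and others kept the file's name. Members and gene lists were chosen with earlier results of these data known. Named were all members, called list genes (at most 4 a direction) and, for some members only, some or all of the 3 most similar genes. A group with no array well above background has only an approximate bound, taken from the lowest signal called well above background on each array. Python 3.11.15 with pandas 2.3.3 made the tables.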

Additional observations from a re-analysis of the deposited data

Results flagged for a closer look

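Of 28 sets of 4 arrays (a member probe well above background on all arrays of a line), 1 had an array apart by Dixon's test, and chance flags about 1 in 20. It was RB1 in A549, where the LNA-miR-197 array stood at 2.15 and the other 3 between 2.29 and 2.31, a gap of 0.892 of the range.

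In 1 of 81 pairs of lines a member probe moved by at least 1.2-fold in opposite directions under the same comparison. CCND3 after LNA-miR-197 was 0.31 above LNA-miR-NC in A549 and differed by -0.38 in PC14CDDP, which are 0.690 apart on the log2 scale. With 1 array per line and transfection this difference was not tested.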

How the results depend on the processing

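The values below are counts of member probes called. For LNA-miR-197 against LNA-miR-NC the count of 1 became 0 with no filter on dim probes, with 1 probe per gene, with only the arrays compared, without the line as replicate block, with the slide as block and by the methods' t-test, it was 0 to 0 with each line left out, and 2 with AllStar-NC as control, where the called probes were CCND1 and downstream CDKN2A in place of CCNE2. For PC14CDDP against PC14 the count of 8, CCND2 included, became 4 with no transfection term and 4 by the methods' t-test, and lay between 5 and 7 with each transfection left out, 5 being without LNA-miR-NC. For A549 against PC14 it was 6 or 7 under every alternative, and for the other comparisons 0 throughout. No called member difference changed sign. The CCND2 difference between PC14CDDP and PC14, fitted at 7.12, became 2.61 under normexp, whose offset of 50 is added to every signal.

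Over all probes the calls ranged over the alternatives from 0 to 636 for premiR-197 (main 29), 0 to 5006 for LNA-miR-197 (main 2695), 0 to 325 for LNA-miR-NC (main 150), 0 to 867 for the difference of effects (main 17, alternatives chosen after seeing the data), 10853 to 19140 for PC14CDDP (main 16445) and 17071 to 23000 for A549 (main 22736). Without the line as block the counts were 0 for premiR-197, 3 for LNA-miR-197, 6 for LNA-miR-NC and 0 for the difference, and with each line left out they were 0 for all but LNA-miR-NC (0 to 3). With 3 lines, 12 arrays and 1 array per line and transfection, small differences cannot be detected, and signals at background have no order.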
